A study of Mus musculus with 4 samples.

Results

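The interleukin 1 (IL-1) ligands, their antagonist and their receptors were followed as 6 genes, chosen by symbol among the 31053 mouse features of the series, and all 6 symbols were found. Il1a and Il1b encode the agonists IL-1α and IL-1β. Il1rn encodes the IL-1 receptor antagonist, Il1r1 the signalling receptor, Il1r2 the decoy receptor and Il1rap the accessory protein.

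Both agonists bind the type 1 receptor, which recruits the accessory protein and signals through MyD88 and IRAK kinases to NF-κB and MAP kinases. The antagonist occupies the same receptor without recruiting the accessory protein. The decoy receptor binds agonist but lacks a signalling domain. IL-1α is active as a precursor and is held in the cell or released on damage, whereas pro-IL-1β needs cleavage, mostly by caspase-1. In tumours, myeloid cells are a known source of both agonists, and fibroblasts are known responders.

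Cells of the HER2+ mammary tumour line H605 were placed in the mammary pad of FVB/NJ hosts labelled 6 to 8 weeks old, and tumours were taken at day 14. The 4 libraries came from 2 wild-type (WT) hosts and 2 Il1a-/- hosts (IL1α-/- in the labels). The deletion is in the host, so the injected tumour cells keep their own copies of Il1a. The labels name neither the deleted exons nor the sex of the hosts. One tumour of each genotype made a pair, and the pairs were collected on separate days. Live cells were enriched without a sort for any lineage, and UMIs (unique molecular identifiers, 1 per captured transcript) were counted at the 3' end.

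Mouse UMIs numbered 23462739 and 28999819 in WT replicates 1 and 2, and 6704859 and 15297495 in Il1a-/- replicates 1 and 2. The 4 libraries gave 4001, 4006, 3213 and 3335 cells, with median UMIs per cell from 1361 in Il1a-/- replicate 1 to 4209.5 in WT replicate 2. Libraries shared 0 to 6 cell barcodes per pair. Cells were put in 11 classes by counting detected marker genes, none of which is an IL-1 gene, and each class carries the name of its markers with "-like". The largest class was that of T and NK-like cells, with 2297 to 2384 cells per library. Tumour epithelial-like cells numbered 380 and 247 in WT libraries but 27 and 3 in Il1a-/- libraries, and neutrophil-like cells 33 and 66 against 5 and 8. Levels are in CPM, the gene's UMIs in a class and library divided by all mouse UMIs there and multiplied by 1000000, and the error is the exact 95% Poisson interval, in brackets, or the SD over libraries. Intervals cover counting error only.

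The genes lie at 3 places in the mouse genome (GRCm38, GENCODE annotation). Il1a (ENSMUSG00000027399, chr2:129299610-129309972, minus strand) and Il1b (ENSMUSG00000027398, chr2:129364570-129371139, minus strand) are neighbours 54.6 kb apart, each with up to 7 exons. Il1rn (ENSMUSG00000026981, chr2:24336853-24351494, plus strand) lies 104.9 Mb away on the same chromosome. Il1r2 (ENSMUSG00000026073, chr1:40074079-40125231) and Il1r1 (ENSMUSG00000026072, chr1:40225080-40317257) follow each other on the plus strand of chromosome 1 with 99.8 kb between them. Il1rap (ENSMUSG00000022514, chr16:26581704-26730117, plus strand) has up to 12 exons.

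The promoters of the 2 agonists and the antagonist are shown because these genes were all found in WT macrophage-like cells, Il1a at a much lower level than Il1b and Il1rn. Each run is the 150 bases before a RefSeq start (GRCm38.p6), read 5' to 3' on the gene's strand, at chr2:129309973-129310122 for Il1a, chr2:129371140-129371289 for Il1b and chr2:24336710-24336859 for the first of the 3 listed starts of Il1rn. Capitals mark matches to TATAAA, to TGANTCA (the AP-1 element) and to an NF-κB element read as GGGA, any 4 bases and CC.
Il1a: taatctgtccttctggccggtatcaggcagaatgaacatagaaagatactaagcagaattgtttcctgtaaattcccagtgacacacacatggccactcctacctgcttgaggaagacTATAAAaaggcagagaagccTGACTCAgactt
Il1b: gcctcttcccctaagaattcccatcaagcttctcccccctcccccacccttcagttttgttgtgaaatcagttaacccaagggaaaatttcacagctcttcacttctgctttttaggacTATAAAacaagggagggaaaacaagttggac
Il1rn: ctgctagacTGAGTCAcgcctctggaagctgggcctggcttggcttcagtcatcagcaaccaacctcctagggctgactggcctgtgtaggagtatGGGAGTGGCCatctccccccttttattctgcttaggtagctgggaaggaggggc
Both agonist promoters hold TATAAA, starting 32 bases before the start of Il1a and 31 before that of Il1b. Over the 250 bases before all 32851 listed starts, searched on both strands, TATAAA was present in 12.4%, TGANTCA in 6.75% and the NF-κB element in 17.6%. Overlapping matches were allowed, and the NF-κB element was also found in the Il1rap window, 119 bases before its start. In the same windows of Il1rn, Il1r1, Il1r2 and Il1rap these letters of TATAAA were not found. Il1a held TGANTCA 12 bases before its start and Il1rn 141 bases before the start shown. TTGCNNAA (the C/EBP element, 9.56% of windows) was found in that of the upstream Il1r1 start, 133 bases before it, and GAGGAAGT (PU.1, 2.44%) in no window of the 6 genes. The full palindrome TGACGTCA (the cyclic AMP element, 1.55%) was in none either, and CCAAT (33.8%) was in one Il1r1 window and that of Il1rap. These matches are letters in a window and not measured sites.

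Il1a itself was the check of the labels. WT replicates 1 and 2 held 67 and 112 Il1a UMIs in all cells, and Il1a-/- replicates 1 and 2 held 1 and 0. The single UMI lay in a phagocyte-like cell of Il1a-/- replicate 1. The groups did not overlap. Tumour epithelial-like cells, whose Il1a is intact, held 3 Il1a UMIs in 657 cells, all of them in WT replicate 2.

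In WT tumours Il1a was found mainly in macrophage-like cells. They were 7.78% of WT cells and held 76.5% of the 179 Il1a UMIs. Their level was 45.3 CPM (34.6 to 58.1) in WT replicate 1 and 30.6 (24.1 to 38.3) in WT replicate 2, from 61 and 76 UMIs. Both Il1a-/- libraries were at 0 there, where 3 counts would have been 22.2 and 3.42 CPM. Monocyte-like cells held 1 and 0 UMIs in 91 and 122 WT cells.

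Neutrophil-like cells held 11.7% of WT Il1a UMIs, all in WT replicate 2. That library had 21 UMIs in 5 of 66 neutrophil-like cells, or 218 CPM (135 to 333), and WT replicate 1 had 0 in 33 cells, where 3 counts equal 73.1 CPM. The test against all other gated cells called Il1a higher there (log2 difference 4.95, SE 0.98, adjusted p = 9.75e-06), but the call rests on WT replicate 2, which holds all the UMIs. The share of all genes called higher in neutrophil-like cells was 5.42%. Phagocyte-like cells that were neither monocyte-like nor macrophage-like held 0 and 8 Il1a UMIs in the WT libraries, the 8 in 4 of 117 cells, or 13.3 CPM (5.74 to 26.2), and ungated cells held 3 and 3. In the other classes tested, Il1a failed the filter on low counts.

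Few macrophage-like cells showed an Il1a UMI: 32 of 235 (13.6%) and 30 of 388 (7.73%) in the WT libraries. With each cell thinned to 1000 UMIs these shares were 3.23% and 1.90%, close to the reach of 1 UMI. Of the cells with an Il1a UMI, 84.4% (exact binomial interval 67.2 to 94.7) also had an Il1b UMI in WT replicate 1, against 43.8% (36.9 to 51.0) of those without. The same shares in WT replicate 2 were 73.3% (54.1 to 87.7) and 27.9% (23.4 to 32.9). The cells with an Il1a UMI were also deeper, with median UMIs of 9624 against 4564 and 12280 against 4760, and the part of depth in this difference was not tested.

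**Figure D1:**
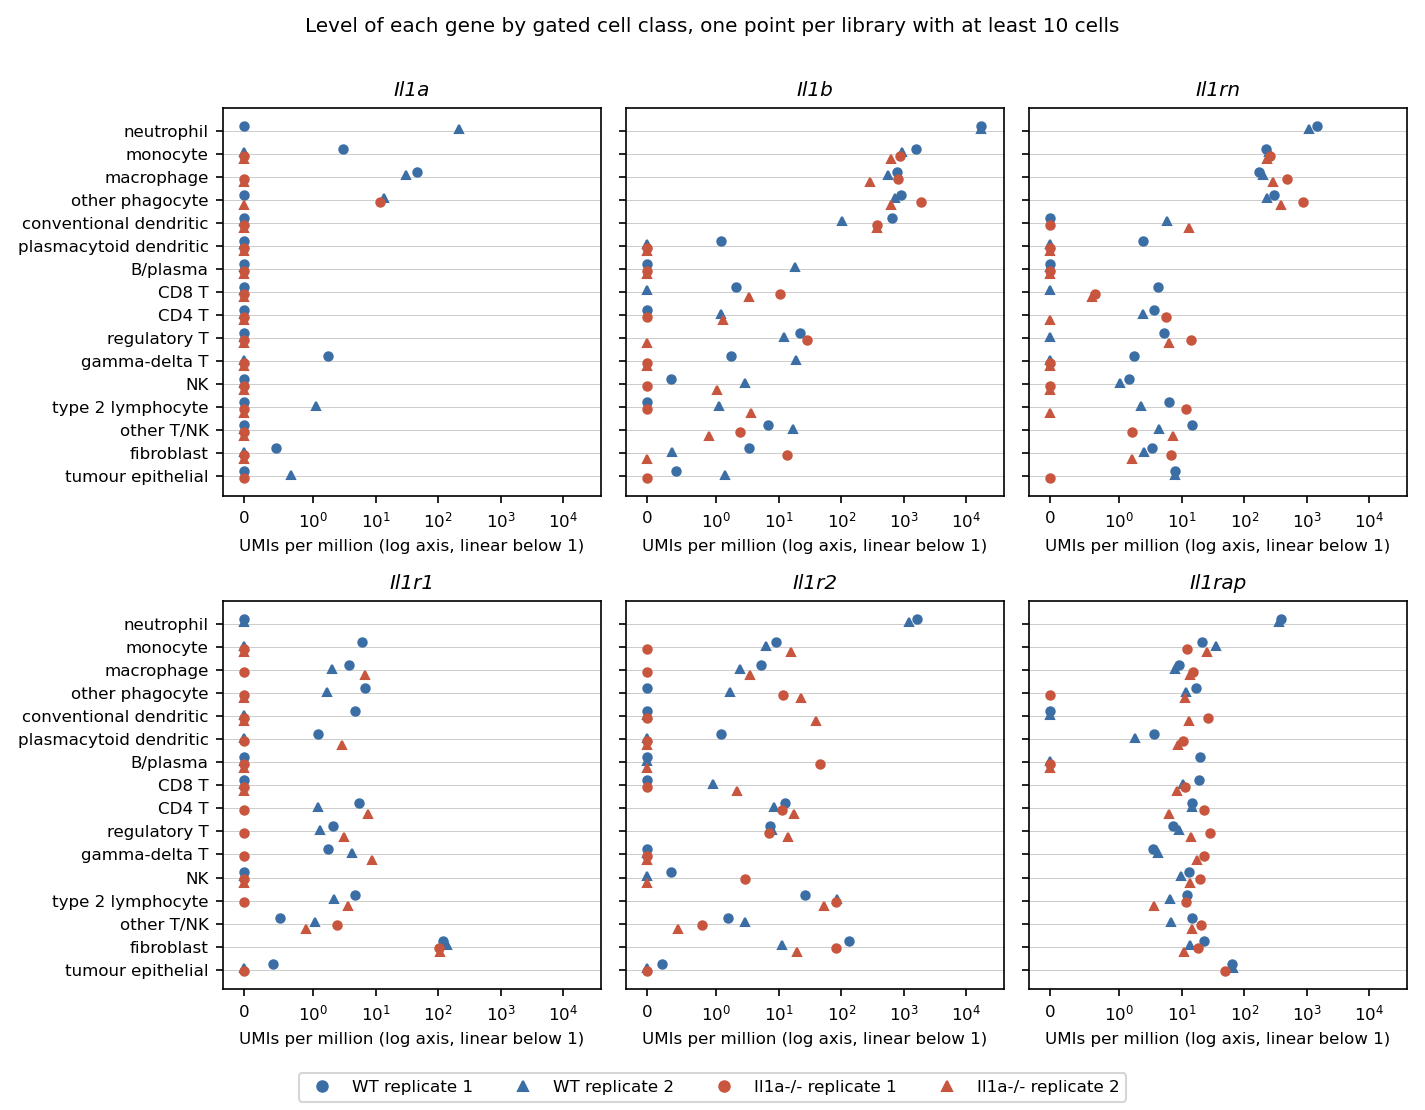
CPM (horizontal, log axis that is linear below 1) of the 6 genes in 16 classes, with 1 point for each library that had at least 10 cells of the class. Il1b, Il1rn, Il1r2 and Il1rap were highest in neutrophil-like cells, and Il1r1 of fibroblast-like cells lay between 102 and 136.

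Il1b was a myeloid gene in all 4 libraries, and its level was highest in neutrophil-like cells. These cells had 17061 (15821 to 18373) and 16911 (16100 to 17752) CPM of Il1b in WT replicates 1 and 2, from 700 and 1631 UMIs. An Il1b UMI was seen in 32 of 33 and 66 of 66 of them. The 2 WT libraries differed by less than their counting error. Il1a-/- libraries had only 5 and 8 such cells, all with an Il1b UMI, at 10559 (7577 to 14324) and 8819 (6888 to 11124) CPM. No test of genotype was made on so few cells. Neutrophil-like cells were 1.24% of WT cells and held 30.8% of their Il1b UMIs. Against all other gated cells of the WT libraries Il1b was 144-fold higher (log2 difference 7.17, SE 0.58, adjusted p = 1.58e-32).

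Next came the mononuclear phagocytes. Monocyte-like cells had 1567, 928, 858 and 628 CPM of Il1b in WT replicates 1 and 2 and Il1a-/- replicates 1 and 2. Macrophage-like cells had 781, 554, 806 and 287 in the same order. Phagocyte-like cells that were neither had 903, 726, 1868 and 616, so Il1a-/- replicate 1 was the highest there.

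Il1b was higher in monocyte-like than in macrophage-like cells in all 4 libraries (log2 difference 0.67, SE 0.16, adjusted p = 0.00804), in a comparison that called 11.5% of all genes higher in monocyte-like cells. Without WT replicate 2 the difference was 0.65 and the adjusted p 0.0671. Against all other gated cells both passed, with a log2 difference of 3.39 (SE 0.19, adjusted p = 3.09e-25, background 15.9% higher) for monocyte-like cells and 2.81 (SE 0.22, adjusted p = 5.1e-06, background 16.6%) for macrophage-like cells. As a whole, mononuclear phagocytes were above the rest for Il1b (log2 difference 4.62, SE 0.46) and for Il1rn (5.57, SE 0.40), with a background of 22%.

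Conventional dendritic-like cells also had Il1b, at 653, 102, 368 and 373 CPM from 24, 41, 11 and 20 cells. Their log2 difference from other cells was 1.49 (SE 0.23, adjusted p = 3.18e-09, background 7.19%). WT replicate 2, at 102 (71.5 to 141), was lowest and lay below the 179 CPM of all called cells of that library. In the other libraries these cells were above all called cells, and the genotypes overlapped.

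T and NK-like cells, the most numerous, had 4.57, 8.02, 6.28 and 1.85 CPM of Il1b. The 37, 97, 23 and 16 Il1b UMIs lay in 8, 21, 5 and 9 cells, less than 1% of the class in each library. In the RNA of barcodes with at most 100 UMIs, which is mostly free RNA, Il1b stood at 125, 159, 65.9 and 82.5 CPM, above its level in these cells. The part of free RNA or of mixed cells in these UMIs was not tested. All 5 members tested were lower in T and NK-like cells than in the other cells, where 34% of all genes were also lower. Il1rap was the least so, at -1.12 (SE 0.34, adjusted p = 0.0261), and did not pass without WT replicate 1 (-0.92, adjusted p = 0.0903) or WT replicate 2 (-0.77, adjusted p = 0.106). Tumour epithelial-like cells had 2, 6, 0 and 0 Il1b UMIs.

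**Figure D2:**
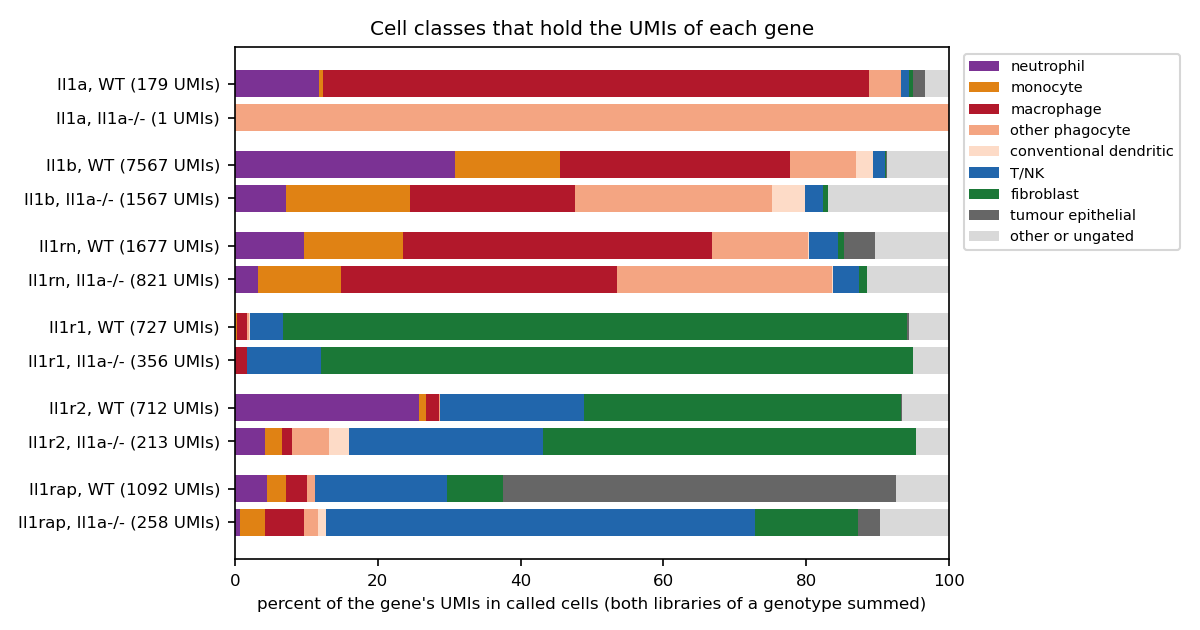
Percent of each gene's UMIs in called cells (horizontal) that lay in each class, with both libraries of a genotype summed. Fibroblast-like cells held 87.3% of Il1r1 UMIs in WT libraries, tumour epithelial-like cells 54.9% of Il1rap UMIs, and neutrophil-like cells 30.8% of Il1b UMIs; in Il1a-/- libraries, with few tumour and neutrophil-like cells, their shares were 3.1% and 7.15%.

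Il1rn, the antagonist, was high in the same neutrophil-like and phagocyte-like classes as Il1b. Neutrophil-like cells had 1438 (1095 to 1855) and 1068 (872 to 1295) CPM in WT libraries (log2 difference from other cells 5.19, SE 0.41, adjusted p = 1.57e-34). The 5 and 8 cells of the Il1a-/- libraries gave 3090 (1597 to 5398) and 1863 (1043 to 3073) from 12 and 15 UMIs. Both were above both WT values. The interval of WT replicate 1 overlapped those of both Il1a-/- libraries, and that of WT replicate 2 only that of Il1a-/- replicate 2. No test of genotype was made. Conventional dendritic-like cells, which had Il1b, held 4 Il1rn UMIs in 96 cells and were below other cells (log2 difference -2.87, SE 0.61, adjusted p = 2.35e-05).

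Monocyte-like cells had 220, 248, 254 and 230 CPM of Il1rn in WT replicates 1 and 2 and Il1a-/- replicates 1 and 2. The intervals of the 4 libraries all overlapped. Macrophage-like cells had 172 (151 to 196), 199 (182 to 217), 488 (378 to 621) and 286 (252 to 324). There both Il1a-/- libraries were above both WT libraries, with no overlap of their intervals. Phagocyte-like cells that were neither had 296, 228, 875 and 388, with the same order of groups. Against all other cells Il1rn was higher in monocyte-like cells (log2 difference 2.93, SE 0.20) and in macrophage-like cells (3.58, SE 0.19). Monocyte-like and macrophage-like cells did not pass the test against each other (log2 difference -0.16, SE 0.19, adjusted p = 0.630).

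**Figure D3:**
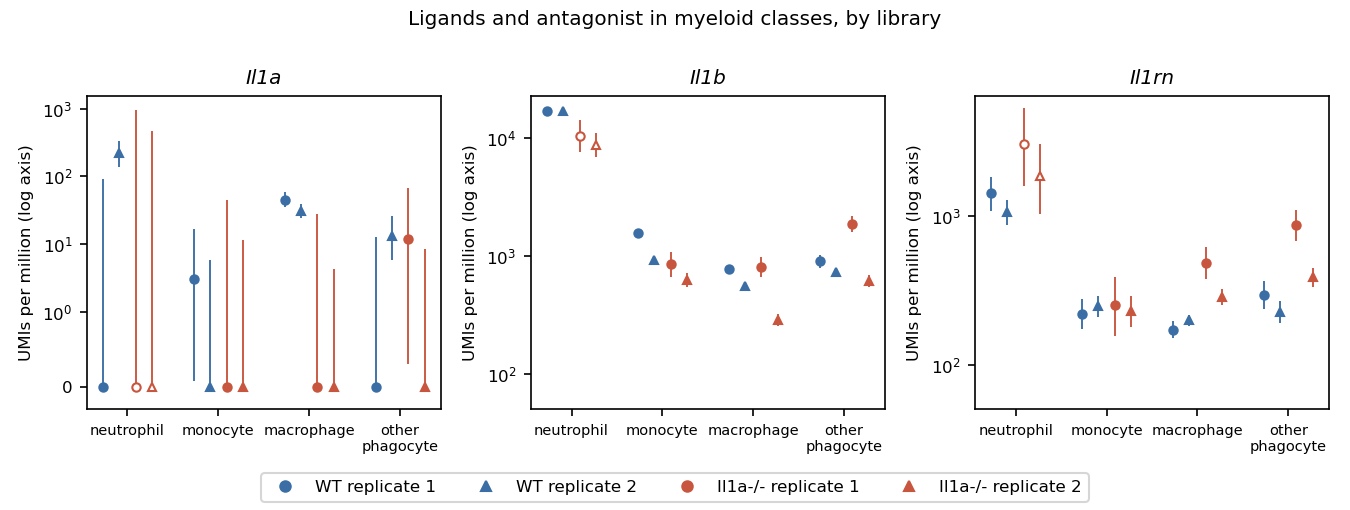
CPM (vertical, log axis) of the 2 agonists and the antagonist in 4 myeloid classes, by library, with exact 95% Poisson intervals; open symbols mark libraries with fewer than 10 cells of the class. Il1rn of macrophage-like cells was 172 and 199 in WT libraries and 488 and 286 in Il1a-/- libraries, whereas the 4 monocyte-like values lay between 220 and 254.

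Whether loss of host Il1a changed the other members was asked in phagocyte-like cells, with summed counts of the 4 libraries. The fit tested 8860 genes and called 58, or 0.655%. Of the 6 members 4 passed its filter on low counts, and 1 was called. That was Il1a, at a log2 difference of -5.43 (Il1a-/- minus WT, SE 0.84, adjusted p = 0.0361). The fitted size depends on the prior count, since the Il1a-/- libraries held 1 UMI. Without Il1a-/- replicate 2 the value was -3.04 with an adjusted p of 0.282, and the lone Il1a-/- library of that fit is the one with the UMI.

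Il1rn was 199 and 212 CPM in WT and 532 and 303 in Il1a-/- phagocyte-like cells. The groups did not overlap and the log2 difference was 1.00 (SE 0.26), but the adjusted p was 0.127. A block for the replicate number gave 0.97, which passed at an adjusted p of 0.0288. Over the 4 fits that left out 1 library each it was between 0.67 and 1.30 and passed in none. In macrophage-like cells alone it was 0.99 (SE 0.29, adjusted p = 0.196), and in monocyte-like cells alone 0.02 (SE 0.28, adjusted p = 0.999).

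The difference between these 2 effects was 0.83 (macrophage-like minus monocyte-like, SE 0.29, unadjusted p = 0.00932) with an adjusted p of 0.341, so the genotype effect on Il1rn was not shown to differ between macrophage-like and monocyte-like cells. Beside this, summed monocyte markers of the phagocyte-like class were 2268 and 3563 CPM in WT and 4158 and 10140 in Il1a-/- libraries. Summed macrophage markers were 20250 and 11340 against 6005 and 7227. Free RNA held 175 and 126 CPM of Il1rn in WT and 223 and 279 in Il1a-/- libraries. The part of either in the Il1rn values was not tested.

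Il1b of all phagocyte-like cells was 932 and 646 CPM in WT and 1117 and 443 in Il1a-/- libraries. The groups overlapped, and the log2 difference was -0.04 (SE 0.36, adjusted p = 0.980). Leaving out Il1a-/- replicate 1 gave -0.72 (adjusted p = 0.293) and leaving out Il1a-/- replicate 2 gave 0.44 (adjusted p = 0.534), so its sign changed with the library left out. In monocyte-like cells alone it was -0.77 (SE 0.29, adjusted p = 0.461). Il1rap had a log2 difference of 0.21 (SE 0.39, adjusted p = 0.848).

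Il1rn UMIs per Il1b UMI, taken within a library, were 0.213 and 0.328 in WT and 0.476 and 0.683 in Il1a-/- phagocyte-like cells. They were 0.221 and 0.358 against 0.606 and 0.996 in macrophage-like cells, 0.141 and 0.267 against 0.296 and 0.366 in monocyte-like cells, and 0.0843 and 0.0632 against 0.293 and 0.211 in neutrophil-like cells. In each of these classes both Il1a-/- libraries were above both WT libraries. Monocyte-like and macrophage-like cells are parts of the phagocyte-like class, and the monocyte-like interval of WT replicate 2 overlapped those of both Il1a-/- libraries. Free RNA held 337 and 295 Il1rn UMIs beside 241 and 373 of Il1b in WT libraries. In Il1a-/- libraries it held 166 and 342 beside 49 and 101. The part of free RNA in these ratios was not tested. With 2 libraries against 2, an exact permutation test cannot go below p = 0.333, so no test was made of this ratio, which was chosen after the levels were seen.

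Il1r1, the signalling receptor, was found mainly in fibroblast-like cells. They had 119 (104 to 134) and 136 (123 to 151) CPM of Il1r1 in WT and 102 (82.4 to 126) and 106 (92.2 to 122) in Il1a-/- libraries. Both WT libraries lay above both Il1a-/- libraries, and only the intervals of the replicate 2 libraries did not overlap. The genotype fit of Il1r1 did not pass (log2 difference -0.27, SE 0.25, adjusted p = 0.872). Fibroblast-like cells were 7.13% of WT cells and held 87.3% of Il1r1 UMIs, and 8.37% and 82.9% in Il1a-/- libraries. Il1r1 was 62.0-fold higher than in other cells (log2 difference 5.95, SE 0.37, adjusted p = 7.54e-05), in a contrast that called 26.6% of all genes higher and 29.7% lower. Il1b and Il1rn were among those lower. An Il1r1 UMI was seen in 39.9%, 55.0%, 24.2% and 42.4% of the cells, and these shares followed the median UMIs of the cells (6171, 10579, 3134 and 7427). Thinned to 1000 UMIs the shares were 9.67%, 10.8%, 9.05% and 9.88%.

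T and NK-like cells as a whole, a mean over subsets that were not alike, had 1.73, 1.57, 2.73 and 3.12 CPM of Il1r1 (log2 difference between genotypes 0.89, SE 0.39, adjusted p = 0.201). CD8 T-like and NK-like cells held 0 Il1r1 UMIs in 1863 and 2101 cells. Neutrophil-like cells held 0 in the WT libraries, where 3 counts equal 73.1 and 31.1 CPM, below the fibroblast-like level of the same library in both. Endothelial-like cells, a known carrier of the receptor, gave 3 UMIs in 15 cells of WT replicate 1, or 74.9 CPM (15.4 to 219), and 7 UMIs in 2 of 8 cells of Il1a-/- replicate 2, or 207 CPM (83.1 to 426). These intervals hold the fibroblast-like levels of the same libraries, and the 6 and 1 endothelial-like cells of the other two libraries held 0. Monocyte-like and macrophage-like cells held 2 and 16 UMIs over all libraries.

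Il1r2, the decoy receptor, was highest in neutrophil-like cells. They had 1609 (1244 to 2047) and 1223 (1013 to 1465) CPM in WT libraries, a log2 difference of 6.93 (SE 0.44, adjusted p = 7.32e-52) from other cells. An Il1r2 UMI was seen in 22 of 33 and 41 of 66 cells. The 5 and 8 cells of the Il1a-/- libraries gave 1288 (418 to 3005) and 497 (135 to 1272).

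Fibroblast-like cells held 66.4% and 79.3% of Il1r2 UMIs in the replicate 1 libraries, WT first, but 10.9% and 31.4% in the replicate 2 libraries. Neutrophil-like cells held 41.7% in WT replicate 2, and T and NK-like cells 38.0% in Il1a-/- replicate 2, more than fibroblast-like cells there. The fibroblast-like level split by replicate number and not by genotype. Replicate 1 had 133 (118 to 150) in WT and 82.1 (64.4 to 103) in Il1a-/-, and replicate 2 had 11.1 (7.52 to 15.7) and 19.8 (14 to 27.2). The numbers may follow the pairs, which were collected on separate days. Il1r2 passed as higher in fibroblast-like cells (log2 difference 2.74, SE 0.83, adjusted p = 0.032), but not without WT replicate 1 (2.00, adjusted p = 0.0998) or Il1a-/- replicate 1 (2.18, adjusted p = 0.108).

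Cells with a UMI of Pi16 or Dpp4, genes of universal or adventitial fibroblasts, were 78.1% and 86.7% of fibroblast-like cells in the replicate 1 libraries and 55.5% and 63.9% in the replicate 2 libraries, WT first. This split was chosen after the values were seen. Within these cells Il1r2 was 150 and 86.3 CPM in replicate 1 and 14.9 and 24.4 in replicate 2, so the replicate numbers stayed apart inside them. Cells without these UMIs had 30.6 and 38.5 in replicate 1 and 4.77 and 9.85 in replicate 2, WT first, lower in each library. These values rest on 9, 3, 5 and 6 UMIs, and only in WT replicate 1 did the intervals of the 2 sets of cells not overlap. Cells without were also shallower in every library (median UMIs 1993 against 7074 in WT replicate 1), and the part of depth was not tested. Il1r1 was 106, 135, 102 and 102 in the cells with a Pi16 or Dpp4 UMI and 200, 138, 103 and 116 in those without.

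**Figure D4:**
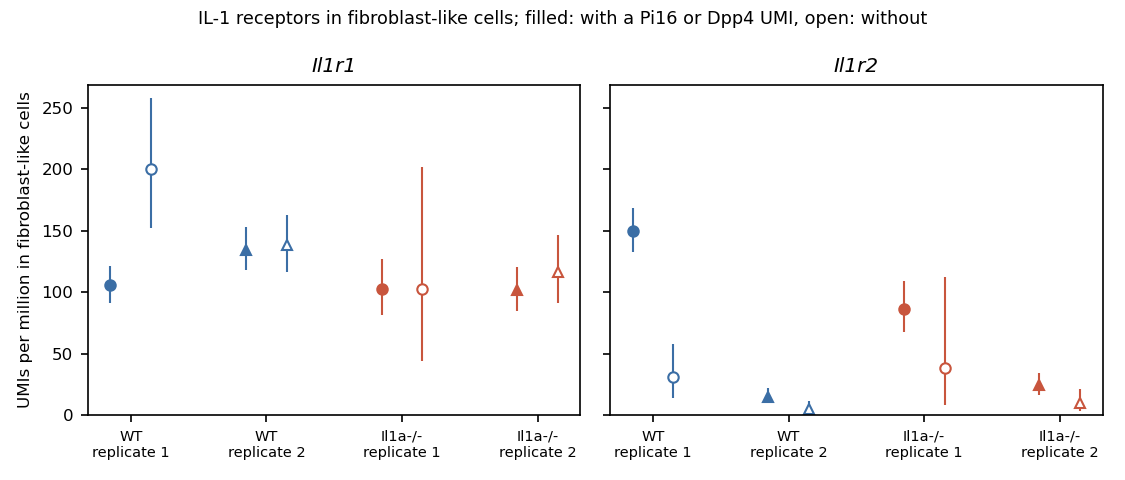
CPM (vertical) of Il1r1 and Il1r2 in fibroblast-like cells of each library, with exact 95% Poisson intervals; filled symbols are cells with a Pi16 or Dpp4 UMI and open symbols the others. Il1r2 in filled symbols was 150 and 86.3 in replicate 1 but 14.9 and 24.4 in replicate 2. Il1r1 lay between 102 and 135 in filled symbols and between 103 and 200 in open symbols.

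The genotype fit in fibroblast-like cells tested 9938 genes and called 0 of them with edgeR (0%), with 501 at an unadjusted p under 0.05; DESeq2 called 10. The 3 members that passed its filter were Il1r1 (log2 difference -0.27, SE 0.25, adjusted p = 0.872), Il1r2 (-0.54, SE 1.15, adjusted p = 0.952) and Il1rap (-0.32, SE 0.42, adjusted p = 0.904). In the fit blocked by replicate number Il1r2 had a difference of -0.05 (SE 0.38).

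Type 2 lymphocyte-like cells, T and NK-like cells with at least 2 of Gata3, Il13, Il5, Il4 and Areg, were the third class with Il1r2. They had 26.0 (15.1 to 41.6), 85.0 (67.2 to 106), 81.7 (32.8 to 168) and 53.6 (30 to 88.3) CPM. WT replicate 1 was the lowest, and the genotypes overlapped. Their log2 difference from other cells was 2.32 (SE 0.39, adjusted p = 6.43e-05), where 9.49% of all genes were higher. In the same cells Il1r1 had 3, 2, 0 and 1 UMIs against 17, 78, 7 and 15 of Il1r2. In order of mean level type 2 lymphocyte-like (61.6 ± 27.6, SD, n = 4) and fibroblast-like cells (61.5 ± 57.3, SD, n = 4) did not differ beyond their spread, and CD4 T-like cells followed at 12.4 ± 3.86 (SD, n = 4).

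Il1rap, the accessory protein, was highest in neutrophil-like cells, at 390 (223 to 633) and 353 (244 to 493) CPM in WT libraries (log2 difference 3.91, SE 0.46, adjusted p = 1.76e-15). Tumour epithelial-like cells came next, with 63.9 (56.9 to 71.5) and 66.7 (59.3 to 74.8) in WT and 49.4 (21.3 to 97.4) in Il1a-/- replicate 1. They were above other cells by 2.03 (log2, SE 0.24, adjusted p = 9.53e-04), with 19.1% of all genes higher, and held 54.9% of Il1rap UMIs in WT libraries. The same cells had 2, 0 and 0 Il1r1 UMIs in those 3 libraries. Apart from these classes, mean levels fell from 23.1 ± 9.33 (SD, n = 4) in monocyte-like cells over 16.1 ± 5.12 in fibroblast-like cells to 12.1 ± 4.50 in CD8 T-like cells, neighbours that did not differ beyond their spread.

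In fibroblast-like cells, which carry Il1r1, Il1rap had 22.4, 13.2, 18 and 10.9 CPM and did not pass the test against other cells (log2 difference -0.10, SE 0.20, adjusted p = 0.696). Of the fibroblast-like cells with an Il1r1 UMI, 16.4%, 19.0%, 7.04% and 6.48% also had one of Il1rap, and of those without, 7.11%, 5.05%, 4.50% and 8.16%. The first were deeper in every library, with median UMIs of 8374 against 3283 in WT replicate 1. In T and NK-like cells Il1rap had 12.4, 8.52, 16.7 and 10.8, with a log2 difference between genotypes of 0.41 (SE 0.28, adjusted p = 0.390).

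The genotype fit in T and NK-like cells tested 11144 genes and called 643, or 5.77%. Of the 5 members that passed its filter, 0 were called. Besides Il1r1 and Il1rap, they were Il1b (log2 difference -0.83, SE 0.53, adjusted p = 0.359), Il1rn (-0.65, SE 0.61, adjusted p = 0.540) and Il1r2 (-0.55, SE 0.40, adjusted p = 0.430). With the replicate block 0 of the 5 were called as well. The make-up of the class differed between genotypes: CD8 T-like cells numbered 126 and 211 in WT against 815 and 711 in Il1a-/- libraries, NK-like cells 698 and 791 against 276 and 336, and regulatory T-like cells 260 and 257 against 62 and 147. The part of this shift in any value of the fit was not tested.

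Genes whose profile over 18 classes was most like that of a member were sought among 12314 genes, by Pearson correlation of log2(CPM + 10) of class means. They are descriptions, since the points share libraries, and 15 of the 18 genes found were highest in neutrophil-like cells. For Il1b they were Lrrc25 (r = 0.985), B430306N03Rik (0.985) and Mcemp1 (0.975). For Il1rn they were Cd300ld (0.991), Cxcl2 (0.984) and Cd300lb (0.984), and for Il1a Piwil2 (0.955), Dmxl2 (0.952) and Cxcl3 (0.939). The neutrophil-like level of Il1a, its highest, came only from 21 UMIs in 5 cells of WT replicate 2. For Il1r2 the most similar genes were Hdc (0.909), which is one of the neutrophil gating markers, Atp1a4 (0.904) and Raet1e (0.893). Il1r1 was most like Adam12 (0.920), Gpr180 (0.912) and Zfp820 (0.908), all 3 highest in fibroblast-like cells, and Il1rap like Olfr56 (0.951), B230208H11Rik (0.946) and 9130230L23Rik (0.939).

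Genes known to rise on IL-1 signalling were read in the same fits, with levels in CPM of library sizes scaled by TMM. In phagocyte-like cells 17 of the 26 listed targets were tested, 2 were called higher in Il1a-/- tumours and 0 lower. The share of all genes called there was 0.655%. Il1r1 had 21 UMIs in the 1504 phagocyte-like cells and was below other cells (log2 difference -2.58, SE 0.37, adjusted p = 7.27e-04). Whether IL-1 signalling had a part in the differences of the targets was not tested. The median log2 difference of the 17 was 1.03, against -0.02 over all genes, and 15 were above 0. The 2 below 0 were Lcn2 (-3.96, SE 1.02, adjusted p = 0.120), the largest difference of the list, and Tnip1 (-0.08, SE 0.27, adjusted p = 0.928). Macrophage markers of these cells summed to 20250 and 11340 CPM in WT against 6005 and 7227, and monocyte markers to 2268 and 3563 against 4158 and 10140. Cxcl2, a neutrophil-attracting chemokine, had 664 and 466 CPM in WT and 2301 and 2394 in Il1a-/- libraries (log2 difference 2.06, SE 0.26, adjusted p = 0.0216). Tnfaip3, the feedback inhibitor A20 of NF-κB, had 127 and 109 against 317 and 281 (1.33, SE 0.22, adjusted p = 0.0393). Neither pair of groups overlapped. Cxcl2 had an adjusted p of 0.0632 without Il1a-/- replicate 2. Tnfaip3 had 0.0560 without WT replicate 2, 0.173 without Il1a-/- replicate 2 and 0.0519 in cells with at least 1000 UMIs. In macrophage-like cells alone the differences of Cxcl2 and Tnfaip3 were 2.63 and 1.65, with adjusted p of 0.0233 and 0.0468. In monocyte-like cells alone their differences were 0.55 and 0.63, with adjusted p of 0.777 and 0.580.

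In T and NK-like cells 14 targets were tested, with a median of 0.07 against -0.02 over all genes. Of them 1 was called higher and 1 lower, in a fit that called 5.77% of all genes. CD8 T-like cells were 3.15% and 5.27% of all cells in WT against 25.4% and 21.3% in Il1a-/- libraries, and NK-like cells 17.4% and 19.7% against 8.59% and 10.1%, a shift whose part in these values was not tested. Tnfaip3 rose from 406 and 259 to 758 and 871 (log2 difference 1.29, SE 0.23, adjusted p = 0.022; adjusted p = 0.101 without WT replicate 2). Lcn2, the siderophore-binding lipocalin 2, fell by 5.75 on the log2 scale (SE 0.90, adjusted p = 0.015), from 14.3 and 5.82 to 0.547 and 0 CPM. Beside it, free RNA held 1123 and 515 CPM of Lcn2 in WT and 157 and 5.72 in Il1a-/- libraries. All 12 tumour epithelial markers summed to 97.4 and 78.2 CPM in WT and 47.8 and 53.6 in Il1a-/- T and NK-like cells, with 11 and 11 of them detected against 4 and 3. The part of this RNA in the Lcn2 values was not tested.

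In fibroblast-like cells 20 targets were tested and 0 were called (median 0.01). The 2 with the smallest p were Lcn2, at 12.1 and 6.80 against 1.12 and 1.62 CPM (log2 difference -2.65, adjusted p = 0.839), and the chemokine Cxcl5, at 7.47 and 12.9 against 2.24 and 1.62 (-2.44, adjusted p = 0.839).

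**Figure D5:**
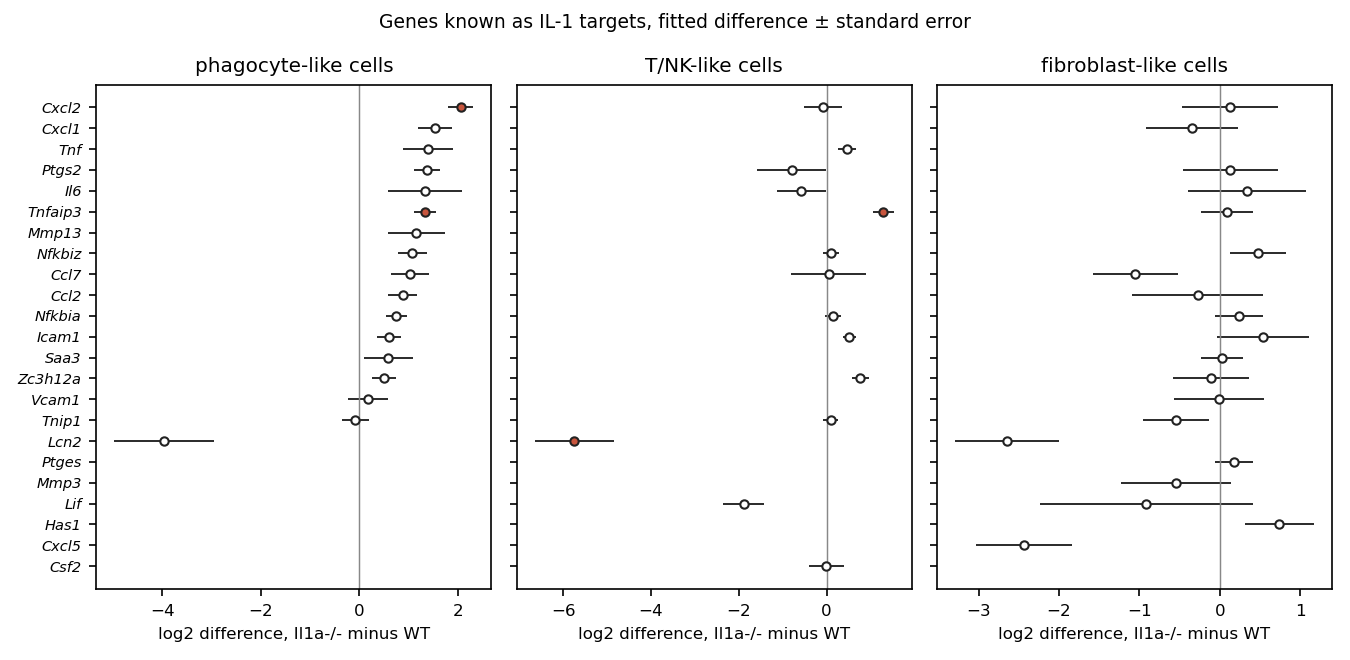
Fitted log2 difference, Il1a-/- minus WT (horizontal, ± SE), of the listed IL-1 target genes that were tested in each of 3 cell classes; filled points passed an adjusted p of 0.05 over all genes. In phagocyte-like cells 15 of 17 were above 0 and 2 passed, where 0.655% of all genes did, whereas in fibroblast-like cells 10 of 20 were above 0.

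Of the genes that carry the receptor's signal, 16 were listed. In T and NK-like cells all 16 were tested and 1 was called, near the 5.77% of all genes called in that fit. It was Irak2, a kinase of the receptor complex, which rose from 28.9 and 21.0 to 83.2 and 60.8 CPM (log2 difference 1.52, SE 0.22, adjusted p = 0.0103), beside the same shift from NK-like to CD8 T-like cells. In phagocyte-like cells 0 of 15 were called. Irak2 had 25.4 and 24.9 against 73.0 and 46.2 there (1.12, SE 0.28, adjusted p = 0.115, and 0.0376 with the replicate block), and Peli1, a ubiquitin ligase of the pathway, 78.0 and 65.1 against 133 and 124 (0.84, adjusted p = 0.142). In fibroblast-like cells 0 of 15 were called, and Tab2 (0.54) and Irak2 (1.27) had the smallest p, both with an adjusted p of 0.839.

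Of 16 genes for the maturation and release of IL-1, 0 of 16 were called in phagocyte-like cells. Nlrp3, the inflammasome sensor, had 76.0 and 69.8 CPM in WT against 156 and 166 (log2 difference 1.15, SE 0.22, adjusted p = 0.0521), and passed with the replicate block (adjusted p = 0.00877), with DESeq2 (0.0493) and with RLE size factors (0.048). In macrophage-like cells alone it was 1.24 (adjusted p = 0.0844) and in monocyte-like cells alone 0.54 (0.684). Casp4 (caspase-11) had 27.8 and 44.9 against 69.8 and 67.0 (0.88, adjusted p = 0.211). In T and NK-like cells 1 of 13 was called, again Nlrp3, which rose from 3.49 and 2.41 to 11.2 and 8.42 (1.72, SE 0.31, adjusted p = 0.0228; 1.46 and 0.132 without WT replicate 2), beside the same shift. The share of all genes called in T and NK-like cells was 5.77%. In fibroblast-like cells 0 of 11 were called, and Pycard (-0.47) and Gsdme (0.83) had the smallest p.

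The wider IL-1 family had 18 listed symbols, 14 of them among the features and most of those under the filter. The fits called 0.655%, 5.77% and 0% of all genes in phagocyte-like, T and NK-like and fibroblast-like cells. Of the 4, 6 and 4 family genes tested there, in the same order, 0 were called, which is near those shares. Those with the smallest p were Il18bp, the IL-18 binding protein (0.80, adjusted p = 0.375), and the IL-36 receptor gene Il1rl2 (-0.82, adjusted p = 0.468) in phagocyte-like cells, Il18rap (0.35, adjusted p = 0.207) and Il18 (-0.89, adjusted p = 0.252) in T and NK-like cells, and Il18bp (0.26, adjusted p = 0.938) and Il1rl2 (0.25, adjusted p = 0.952) in fibroblast-like cells.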

How the data were processed

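Single-cell libraries of 4 tumours were deposited by the authors as raw UMI counts per feature and barcode. Per the submitters' processing notes they were made with Cell Ranger 3.1.0 and build mm10; the deposited features also hold human rows, which had 0 UMIs for the 6 genes. Cells had at least 500 UMIs, 250 genes and at most 20% mitochondrial UMIs. A cell took the class with at least 3 detected markers and 2 times those of the next compartment. No doublet caller was run. Cells short of that ratio stay ungated, but a cell with markers of several compartments that meets it is kept. Neutrophil-like, mononuclear phagocyte-like and conventional dendritic-like cells share a compartment, so the ratio does not separate them. There the class with the most markers was taken, and ties stay ungated. Conventional dendritic-like cells had a median of 5 own markers and 2 of mononuclear phagocytes. Pericyte-like and mast-like cells were too few to describe. A subset of T and NK-like cells is not reported here, though its tests stay in the counts over classes. Members and lists were chosen with earlier results of these data known, and the gate after seeing the markers. Counts were summed per library and class and tested with edgeR 4.0.16 (quasi-likelihood, filterByExpr, TMM) and Benjamini-Hochberg adjustment over all genes tested, with library as a block between classes (at least 10 cells) and no block between genotypes (at least 20 cells). The members are always named; of each pathway list, up to 6 genes that passed, or the 2 with the smallest p. Promoters are from RefSeq, with all 6 genes matched. P-values rest on the spread between these libraries, which the fit moderates over all genes tested. With 2 libraries, as for neutrophil-like cells, they are no measure of the spread of a single gene.

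The labels give 2 pairs of tumours collected on separate days, and the replicate number was read as the pair. Deviations of same-numbered libraries from their group means correlated at 0.185 in T and NK-like, 0.405 in fibroblast-like and 0.0202 in phagocyte-like cells. The scripts were tested on simulated data. R 4.3.3 and scanpy 1.11.5 were used.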

Additional observations from a re-analysis of the deposited data

How the results depend on the processing

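Counts of genes called moved with the settings more than the values of the members did. In phagocyte-like cells the count was 58, and it was 90 with RLE size factors, 496 with no filter on low counts, 302 with the replicate block, 96 with DESeq2, 9 in cells with at least 1000 UMIs, and, chosen after seeing the data, 24 in macrophage-like and 3 in monocyte-like cells alone. It ran from 4 (without Il1a-/- replicate 2) to 240 (without WT replicate 2) when 1 library was left out. In T and NK-like cells it was 643, and 1766 with no filter, 2554 with the replicate block and 181 (without WT replicate 2) to 800 with 1 library left out. In fibroblast-like cells it was 0, and 226 with no filter, 23 with the replicate block, 10 with DESeq2 and 0 to 0 with 1 library left out. Of 88 tests of a member in a class, 71 passed, and 55 to 83 did under the alternatives. Both directions are counted, and for every member but Il1a lower calls outnumbered higher ones. These contrasts also called many other genes. Examples are 5.42% of all genes higher in neutrophil-like cells and 34% lower in T and NK-like cells. In fibroblast-like cells 26.6% were higher and 29.7% lower. Where 1 library was left out the lone library of a genotype was assumed to vary like the others. Among members the replicate block changed the call of Il1rn in phagocyte-like cells only. Of 388 values of single genes in the genotype fits under an alternative, 367 kept their call, 11 gained it and 10 lost it, and 0 calls reversed. Neutrophil-like cells, with 2 libraries, could not be fitted with one left out. Shallow Il1a-/- replicate 1 limits what can be seen of low genes.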
